A study of Homo sapiens with 9 samples.

Results

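The methionine cycle and the arginine methyltransferases that draw on it were followed through 10 genes in Daudi, a Burkitt lymphoma line of B-cell origin: MAT2A, MAT2B, AHCY, AHCYL1, MTR, MTRR, MTAP, PRMT1, PRMT3 and PRMT5. The genes were chosen by their symbols, from the 19775 genes that had a usable probe set on the array, and 25 of the 54613 probe sets carried exactly these symbols. Where a gene had several probe sets, its main value came from the probe set whose mean was highest. All 10 genes passed the filter on low signal.

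The cells had been infected with a short hairpin RNA against MYC (C-Myc-sh), against SLC7A5 (Slc7a5-sh), or with a control hairpin (Ctrl-sh), and all groups were kept under puromycin for 48 h. Each group had 3 arrays, labelled as biological replicates of the same cell line. Separate infections are not stated in the labels, and the p-values therefore measure the spread between these arrays, which may be technical. C-Myc-sh was the positive control of the design, and SLC7A5 is a subunit of a transporter that carries large neutral amino acids, methionine and leucine among them, into the cell.

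In the methionine cycle, methionine adenosyltransferase joins methionine and ATP into S-adenosylmethionine (SAM), the methyl donor of most methyltransferases. Each methyl transfer leaves S-adenosylhomocysteine, a product inhibitor of these enzymes, which is split into adenosine and homocysteine, and homocysteine is then remethylated to methionine. Protein arginine methyltransferases spend SAM on histones, splicing proteins and ribosomal proteins, and methylthioadenosine, a by-product of polyamine synthesis that inhibits PRMT5, is returned to methionine by a salvage pathway.

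Values are log2 MAS5 signals, each array scaled to a common level, so a difference of 1 is a factor of 2 in linear signal. A scaled signal of a bulk sample cannot tell fewer cells of a type from less RNA per cell. SLC7A5 itself was at 75.4% of its Ctrl-sh signal in C-Myc-sh and at 79.99% in Slc7a5-sh, and MYC was at 46.9% and 78.7%, so that both target transcripts were reduced in both knockdowns. Of 10 B-cell markers 9 had a usable probe set, and these 9 lay above the filter level in all groups, with summed linear signals of 51947.5 to 55471 in C-Myc-sh, 43897 to 48005 in Slc7a5-sh and 50039 to 53095 in Ctrl-sh. The summed signals of 8 markers of T and NK cells, 6 of myeloid cells and 8 of epithelial cells and fibroblasts lay between 146 and 745 on every array. Their part in the results below was not tested.

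Setting C-Myc-sh against Ctrl-sh asked how the genes of the cycle changed when MYC was lowered. Of the 10 genes 7 fell, 2 rose and MTRR did not pass the test (limma across 11250 tested genes, Benjamini-Hochberg adjusted p under 0.05). Over all tested genes 26.2% were called lower and 28.7% higher, 54.9% in all. The median log2 change of the 10 genes was -0.56, beside 0.04 for all tested genes, and single changes ran from -1.26 for PRMT3 to 0.50 for MAT2B. Setting Slc7a5-sh against Ctrl-sh asked the same for the transporter hairpin. There 2 of the 10 genes rose and 2 fell, with 14.3% of all tested genes called higher and 11.0% lower, 25.3% in all. The members' median was -0.02 there, beside 0.03 for all tested genes. The arrays of C-Myc-sh and Ctrl-sh did not overlap for 9 of the 10 genes, beside 62.2% of all tested genes. Those of Slc7a5-sh and Ctrl-sh did not overlap for 5, beside 39.8% of all. These comparisons share the control arrays.

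**Figure D1:**
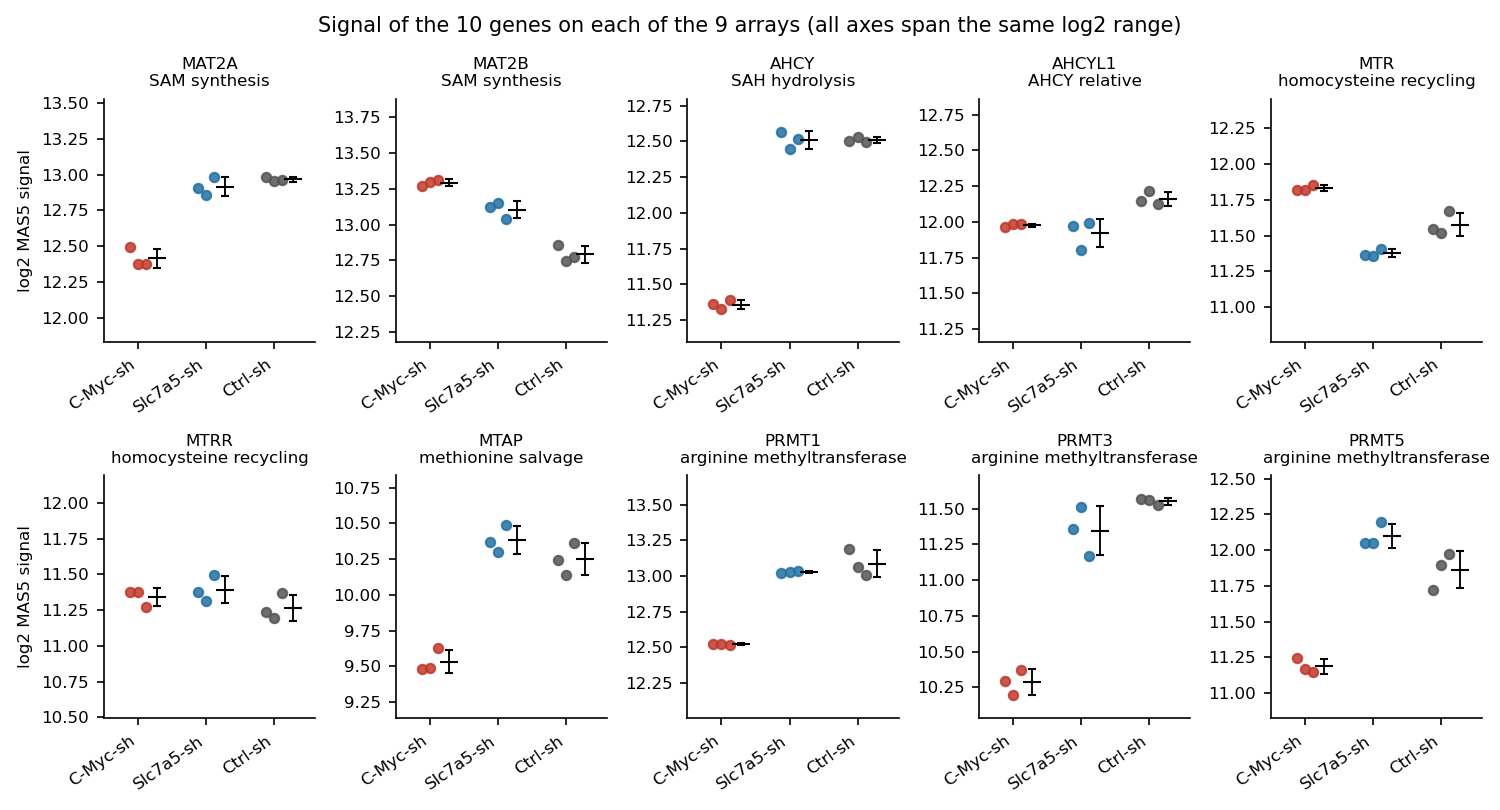
Log2 MAS5 signal (vertical axis, the same span in each panel) of the 10 genes in C-Myc-sh, Slc7a5-sh and Ctrl-sh; points are single arrays, and the bar with whiskers is the mean with its SD (n = 3 per group). The C-Myc-sh arrays lie below all others for MAT2A, AHCY, MTAP, PRMT1, PRMT3 and PRMT5, and above all others for MAT2B and MTR. Without overlap were 9 of the 10 genes in C-Myc-sh against Ctrl-sh, beside 62.2% of all 11250 tested genes. Against Slc7a5-sh it was 8 of the 10, beside 56.5% of all.

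The subunits of methionine adenosyltransferase changed in opposite directions in C-Myc-sh. MAT2A encodes the catalytic subunit of the enzyme outside the liver, and its log2 signals were 12.49, 12.38 and 12.37 in C-Myc-sh, 12.91, 12.86 and 12.99 in Slc7a5-sh, and 12.99, 12.96 and 12.96 in Ctrl-sh. The C-Myc-sh arrays lay below all others, while Slc7a5-sh and Ctrl-sh overlapped. MAT2A fell to 68.2% of the control signal in C-Myc-sh (log2 change -0.55, SE 0.06, limma adjusted p = 7.01e-07), and in Slc7a5-sh its change was -0.05 (95% interval -0.17 to 0.07, limma adjusted p = 0.553). MAT2B encodes a regulatory subunit that binds MAT2A protein. Its signals were 13.27, 13.30 and 13.31 in C-Myc-sh, 13.12, 13.15 and 13.04 in Slc7a5-sh, and 12.86, 12.74 and 12.77 in Ctrl-sh. None of the groups overlapped, with C-Myc-sh highest and Ctrl-sh lowest. MAT2B rose by 41.7% in C-Myc-sh (log2 change 0.50, SE 0.05, limma adjusted p = 1.12e-06) and by 24.2% in Slc7a5-sh (0.31, SE 0.05, limma adjusted p = 0.000628).

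The lower-signal probe set of MAT2A had changes of -0.77 in C-Myc-sh and -0.17 in Slc7a5-sh (SE 0.07 each), of which the first passed in a limma fit over 27307 probe sets and the second did not (adjusted p = 0.115). The second probe set of MAT2B read a signal of 7.99 on average over the 9 arrays, against 13.06 for the main one. It rose in C-Myc-sh (log2 change 0.84, SE 0.23, limma adjusted p = 0.0074) and had a change of -0.04 in Slc7a5-sh (SE 0.23, limma adjusted p = 0.93). The call of MAT2B in Slc7a5-sh therefore rests on its main probe set, and it was lost with the mean of both (0.14, limma adjusted p = 0.453).

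AHCY encodes the hydrolase that removes S-adenosylhomocysteine. Its log2 signals were 11.36, 11.33 and 11.39 in C-Myc-sh, 12.57, 12.45 and 12.52 in Slc7a5-sh, and 12.50, 12.53 and 12.49 in Ctrl-sh. The C-Myc-sh arrays were all more than 1 log2 unit below the others, and the Slc7a5-sh arrays spanned those of Ctrl-sh. In C-Myc-sh AHCY was at 45.0% of the control signal (log2 change -1.15, SE 0.06, limma adjusted p = 3.13e-10), the 552nd lowest change of 11250 genes. In Slc7a5-sh the change was 0.002 with a 95% interval of -0.12 to 0.12 (limma adjusted p = 0.984). A single probe set read AHCY.

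AHCYL1 is a relative of AHCY that is known as a partner of the inositol trisphosphate receptor and is not known to hydrolyse S-adenosylhomocysteine. Its signals were 11.97, 11.98 and 11.98 in C-Myc-sh, 11.97, 11.81 and 11.99 in Slc7a5-sh, and 12.14, 12.21 and 12.12 in Ctrl-sh. Both knockdowns lay below Ctrl-sh on all arrays and overlapped each other. AHCYL1 fell by 11.9% in C-Myc-sh (log2 change -0.18, SE 0.06, limma adjusted p = 0.0203) and fell by 15.2% in Slc7a5-sh (-0.24, SE 0.06, limma adjusted p = 0.0109). The call was lost in both comparisons without Ctrl-sh replicate 2 (-0.16 in C-Myc-sh and -0.21 in Slc7a5-sh). The C-Myc-sh call was also lost without C-Myc-sh replicate 1 (-0.18) and with quantile normalization (-0.08). The other 2 AHCYL1 probe sets above the filter level were not called in either comparison, with changes between -0.18 and 0.03.

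Homocysteine is remethylated by MTR, the cobalamin-dependent methionine synthase, which MTRR, a reductase, keeps active. MTR signals were 11.82, 11.82 and 11.86 in C-Myc-sh, 11.36, 11.36 and 11.41 in Slc7a5-sh, and 11.55, 11.52 and 11.67 in Ctrl-sh. The groups did not overlap, with Ctrl-sh between the knockdowns. MTR rose by 19.2% in C-Myc-sh (log2 change 0.25, SE 0.06, limma adjusted p = 0.00262) and fell by 13.0% in Slc7a5-sh (log2 change -0.20, SE 0.06, limma adjusted p = 0.0262).

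A second MTR probe set had means of 9.84 ± 0.14 in C-Myc-sh, 9.52 ± 0.06 in Slc7a5-sh and 10.10 ± 0.06 in Ctrl-sh (SD, n = 3). It was thus lower than Ctrl-sh in both knockdowns, with log2 changes of -0.26 in C-Myc-sh (limma adjusted p = 0.047) and -0.59 in Slc7a5-sh (SE 0.10 each, limma adjusted p = 0.00115). The direction of MTR in C-Myc-sh thus differed between its probe sets, the mean of both had a change of -0.003, and the main one lost its call with each array centred on its median (0.12, limma adjusted p = 0.218). The fall in Slc7a5-sh was seen with both probe sets. On the main one its call was lost without Ctrl-sh replicate 3 (-0.16), Slc7a5-sh replicate 1 (-0.19) or Slc7a5-sh replicate 2 (-0.19), and also with median centring (-0.21, limma adjusted p = 0.0746) and eBayes without trend (limma adjusted p = 0.056), 5 of 19 alternatives. MTRR had signals of 11.38, 11.38 and 11.27 in C-Myc-sh, 11.38, 11.31 and 11.49 in Slc7a5-sh, and 11.23, 11.19 and 11.37 in Ctrl-sh. All 3 groups overlapped, and its log2 changes were 0.08 in C-Myc-sh (95% interval -0.08 to 0.23) and 0.13 in Slc7a5-sh (-0.03 to 0.28), neither of which passed.

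MTAP encodes the phosphorylase that opens methionine salvage by splitting methylthioadenosine. Its log2 signals were 9.48, 9.49 and 9.63 in C-Myc-sh, 10.37, 10.30 and 10.49 in Slc7a5-sh, and 10.25, 10.14 and 10.36 in Ctrl-sh. C-Myc-sh lay below the other groups, which overlapped. MTAP fell to 60.8% of the control signal in C-Myc-sh (log2 change -0.72, SE 0.10, limma adjusted p = 1.35e-05) and had a change of 0.14 in Slc7a5-sh (SE 0.10, limma adjusted p = 0.33).

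MTAP was read by 6 probe sets above the filter level, more than any other of the 10 genes. All 6 were lower in C-Myc-sh, by -0.69 to -1.45, and 5 were called. In Slc7a5-sh they spread from 0.14 to -0.65 on the log2 scale. The probe set that the platform annotation lists under a RefSeq transcript had means of 8.49 ± 0.24 in C-Myc-sh, 9.12 ± 0.10 in Slc7a5-sh and 9.77 ± 0.11 in Ctrl-sh (SD, n = 3). Its 3 Slc7a5-sh arrays lay below the 3 Ctrl-sh arrays, and it was the only MTAP probe set called there (log2 change -0.65, SE 0.14, limma adjusted p = 0.00533). The main probe set, listed under an expressed sequence tag, was the only one of the 6 that was not lower in Slc7a5-sh. Which transcripts each probe set binds was not tested. Of the 23 probe sets of the 10 genes above the filter level, 15 fell and 3 rose in C-Myc-sh, beside 20.7% lower and 25.1% higher of all 27307 probe sets. In Slc7a5-sh 4 fell and 2 rose, beside 8.51% lower and 9.93% higher of all, so the count of rises was near the share over all probe sets.

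**Figure D2:**
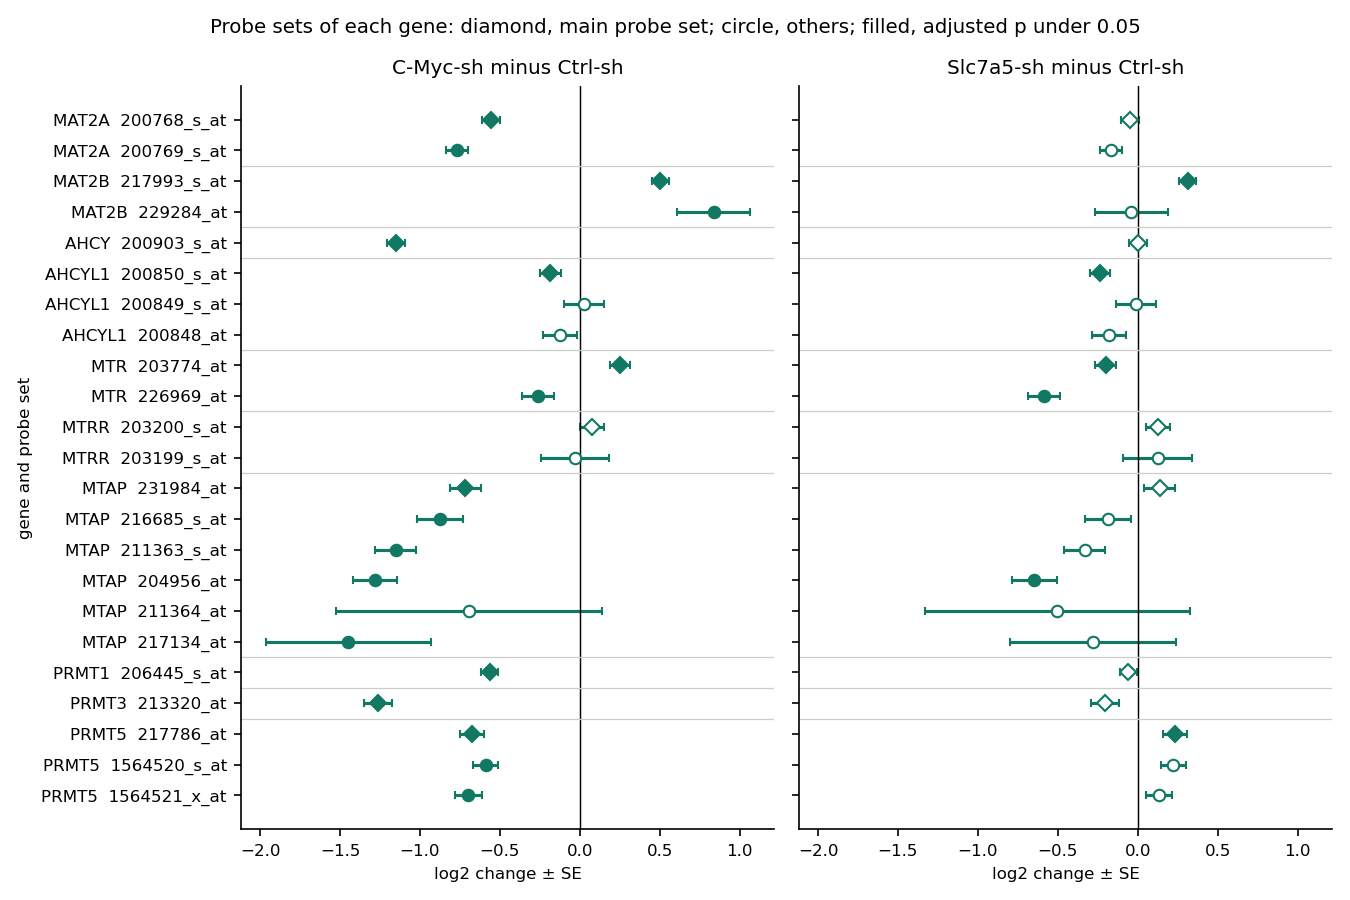
Log2 change with its SE (horizontal axis) of each of the 23 probe sets above the filter level, by gene, in C-Myc-sh and Slc7a5-sh against Ctrl-sh; diamonds are the main probe sets, circles the others, and filled symbols passed limma's adjusted p under 0.05 over 27307 probe sets. In C-Myc-sh 15 probe sets fell and 3 rose, beside 20.7% lower and 25.1% higher of all 27307. The probe sets of MTR point in opposite directions there. In Slc7a5-sh 4 fell and 2 rose, beside 8.51% lower and 9.93% higher of all.

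The 3 arginine methyltransferases fell together in C-Myc-sh. PRMT1 is the main source of asymmetric dimethylarginine, PRMT3 methylates the ribosomal protein RPS2, and PRMT5 makes symmetric dimethylarginine on histones and on the Sm proteins of the spliceosome. PRMT3 had log2 signals of 10.30, 10.20 and 10.37 in C-Myc-sh, 11.36, 11.51 and 11.17 in Slc7a5-sh, and 11.57, 11.56 and 11.52 in Ctrl-sh. The C-Myc-sh arrays were far below the others, and the Slc7a5-sh arrays lay just below those of Ctrl-sh. PRMT3 was at 41.7% of the control signal in C-Myc-sh, the lowest share of the 10 genes (log2 change -1.26, SE 0.09, limma adjusted p = 1.15e-08). In Slc7a5-sh its change of -0.21 did not pass (SE 0.09, limma adjusted p = 0.0943), although it did without Slc7a5-sh replicate 2 (-0.29, limma adjusted p = 0.0253).

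PRMT1 had signals of 12.53, 12.53 and 12.52 in C-Myc-sh, 13.02, 13.03 and 13.04 in Slc7a5-sh, and 13.19, 13.07 and 13.00 in Ctrl-sh. Only the C-Myc-sh arrays stood apart. PRMT1 was at 67.6% of the control signal there (log2 change -0.56, SE 0.05, limma adjusted p = 5.16e-07), and its change in Slc7a5-sh was -0.06 (95% interval -0.18 to 0.06). The other PRMT1 probe set averaged 4.41, below the filter level of 5.77, and the mean of the pair had a change of -0.38 in C-Myc-sh that did not pass (limma adjusted p = 0.334).

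PRMT5 was the only one of the 10 genes that fell in C-Myc-sh and rose in Slc7a5-sh. Its signals were 11.25, 11.17 and 11.15 in C-Myc-sh, 12.05, 12.05 and 12.20 in Slc7a5-sh, and 11.73, 11.90 and 11.97 in Ctrl-sh. The groups did not overlap. PRMT5 was at 62.6% of the control signal in C-Myc-sh (log2 change -0.68, SE 0.07, limma adjusted p = 1.51e-06), and its other 2 probe sets changed by -0.59 and -0.70 there. In Slc7a5-sh it was higher by 17.7% (0.23, SE 0.07, limma adjusted p = 0.0286). The other probe sets had changes of 0.22 and 0.13 in Slc7a5-sh and were not called (limma adjusted p = 0.0607 and 0.3). The call was lost without Ctrl-sh replicate 1 (0.16), Ctrl-sh replicate 2 (0.25) or Slc7a5-sh replicate 3 (0.19), with each array centred on its median (0.22, limma adjusted p = 0.0998) and with eBayes without trend (limma adjusted p = 0.0865).

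The promoters of the 3 methyltransferases are shown because the genes fell together in C-Myc-sh and MYC with its partner MAX binds the E-box CACGTG. Each runs 5′ to 3′ from 250 bases before to 50 bases after the RefSeq start (build GRCh38.p14), and capitals mark the E-box. They lie at chr11:20387466-20387765 on the plus strand for PRMT3, chr19:49677021-49677320 on the plus strand for PRMT1 and chr14:22929327-22929626 on the minus strand for PRMT5.

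PRMT3: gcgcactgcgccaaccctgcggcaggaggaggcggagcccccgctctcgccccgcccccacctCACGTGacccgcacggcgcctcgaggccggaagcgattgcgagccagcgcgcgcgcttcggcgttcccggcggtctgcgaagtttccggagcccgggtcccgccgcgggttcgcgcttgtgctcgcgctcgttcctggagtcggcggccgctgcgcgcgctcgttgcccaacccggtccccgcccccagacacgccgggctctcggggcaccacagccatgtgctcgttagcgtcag

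PRMT1: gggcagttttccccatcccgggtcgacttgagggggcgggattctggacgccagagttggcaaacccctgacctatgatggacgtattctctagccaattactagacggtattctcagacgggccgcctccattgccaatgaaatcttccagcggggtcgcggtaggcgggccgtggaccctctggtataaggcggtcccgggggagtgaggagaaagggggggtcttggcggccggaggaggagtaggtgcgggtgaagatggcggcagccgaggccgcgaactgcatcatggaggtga

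PRMT5: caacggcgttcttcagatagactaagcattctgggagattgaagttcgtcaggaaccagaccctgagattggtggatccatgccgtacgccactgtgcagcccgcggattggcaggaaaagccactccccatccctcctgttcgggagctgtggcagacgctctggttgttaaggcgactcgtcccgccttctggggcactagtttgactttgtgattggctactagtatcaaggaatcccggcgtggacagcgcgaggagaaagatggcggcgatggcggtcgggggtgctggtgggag

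The E-box of the PRMT3 sequence begins 187 bases before the start. Of the 10 genes 9 had a promoter in the RefSeq table, 15 promoters in all, and PRMT3 was the only gene with CACGTG, which reads the same on both strands. The motif was present in 1 of the 15 promoters, beside 7.26% of all 35116 promoters of this length. By gene it was present in 1 of 9, beside 8.77% of all 27305 genes, so both counts were near the share over all. The letters TGATGNAA, the core of the element bound by the amino acid response factor ATF4, were searched on both strands and occurred in 0 of the 15 promoters and in 3.62% of all. A match is a description of the letters and was not tested for binding.

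**Figure D3:**
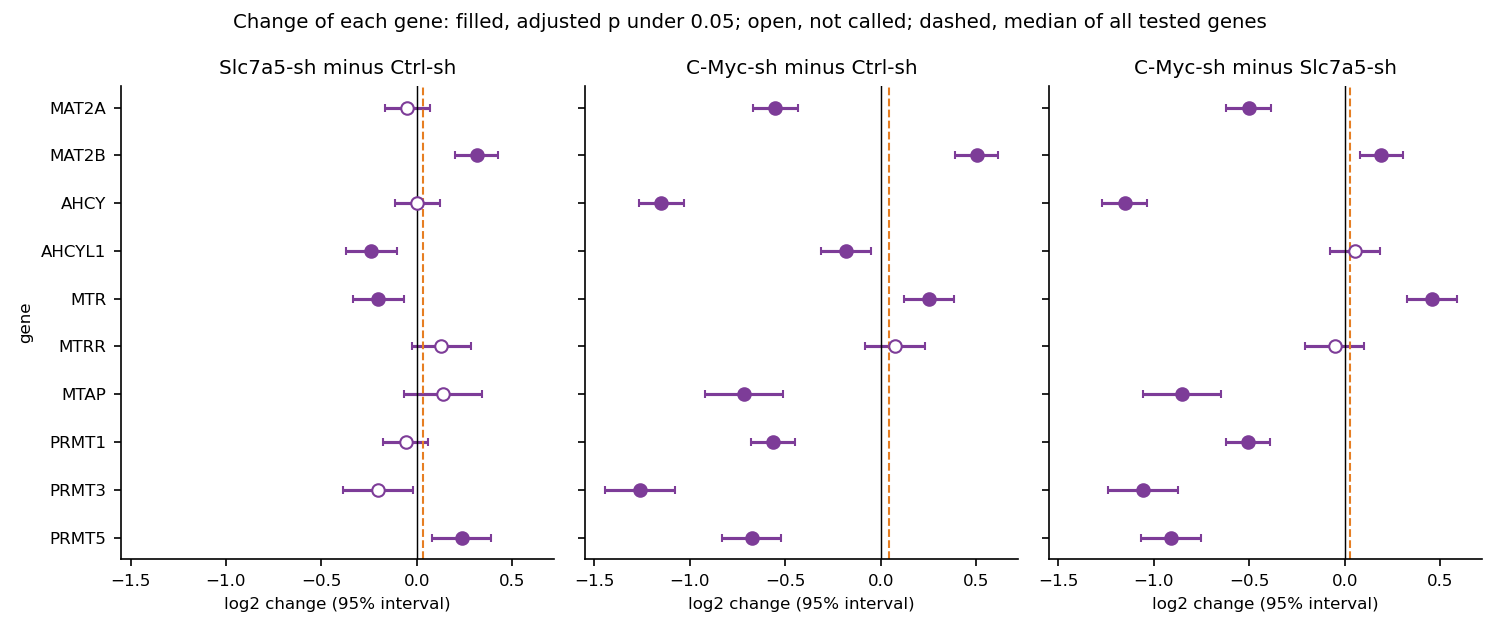
Log2 change with its 95% interval (horizontal axis) of the 10 genes in Slc7a5-sh against Ctrl-sh, C-Myc-sh against Ctrl-sh, and C-Myc-sh against Slc7a5-sh; filled points passed limma's adjusted p under 0.05 and the dashed line is the median of all 11250 tested genes. The direct comparison has 6 genes lower and 2 higher in C-Myc-sh, beside 25.1% lower and 24.4% higher of all tested genes.

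The direct comparison of C-Myc-sh with Slc7a5-sh tested where the hairpins differed. Of the 10 genes 6 were lower in C-Myc-sh and 2 were higher, beside 25.1% lower and 24.4% higher of all tested genes, 49.5% in all. AHCY differed by -1.15, PRMT3 by -1.06, PRMT5 by -0.91 and MTAP by -0.85 on the log2 scale (SE 0.06 to 0.10, limma adjusted p = 5.23e-10 to 3.21e-06). MAT2A was at 70.6% and PRMT1 at 70.4% of the Slc7a5-sh signal. MTR was higher in C-Myc-sh by 0.45 (SE 0.06, limma adjusted p = 2.04e-05), and its second probe set was higher by 0.32 as well. MAT2B was higher by 0.19 (limma adjusted p = 0.00736), a call that was lost with each array centred on its median (0.07, limma adjusted p = 0.395). AHCYL1 (0.06, 95% interval -0.08 to 0.19) and MTRR (-0.05, 95% interval -0.21 to 0.10) did not pass.

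With each array centred on its median, the median change of all tested genes moved by -0.13 in C-Myc-sh against Ctrl-sh and by -0.12 in C-Myc-sh against Slc7a5-sh. The share of called genes that were higher was then 40.7% and 36.8%, beside 52.3% and 49.3% in the values as deposited. MAT2A (-0.68), AHCY (-1.28), MTAP (-0.85), PRMT1 (-0.69), PRMT3 (-1.39) and PRMT5 (-0.81) were still called lower, and MAT2B (0.37) higher, in C-Myc-sh against Ctrl-sh with that scaling.

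The pattern nearest to that of AHCY, the member with the smallest p in C-Myc-sh, was sought among the tested genes outside the 10 by the root-mean-square distance of the 9 log2 signals, each gene centred on its own mean. POLE3, a histone-fold subunit of DNA polymerase epsilon, was nearest (distance 0.06), followed by TPRKB and SNRPF, a core Sm protein of the spliceosome. Their changes in C-Myc-sh were -1.07, -1.17 and -1.12. For MAT2B, which had the smallest p in Slc7a5-sh, the nearest were PSENEN, a gamma-secretase subunit (distance 0.04), CTNNB1, which encodes beta-catenin, and SPPL3, an intramembrane protease. They had changes of 0.35, 0.25 and 0.38 in Slc7a5-sh. Averaged over their probe sets, CTNNB1 (0.0096) and SPPL3 (0.66) were not called.

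Other genes of the pathway were described from 5 lists of 59 genes, of which 45 were tested. In C-Myc-sh 24 of the 45 fell and 11 rose, beside 26.2% lower and 28.7% higher of all tested genes. In Slc7a5-sh 11 fell and 4 rose, beside 11.0% lower and 14.3% higher of all. Their median log2 change was -0.35 in C-Myc-sh and -0.03 in Slc7a5-sh, beside 0.04 and 0.03 for all tested genes.

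Partners and relatives of the methyltransferases had 7 of 11 tested genes lower and 2 higher in C-Myc-sh (median log2 change -0.45), beside 26.2% lower and 28.7% higher of all tested genes. The 2 higher genes were BTG1 and PRMT2. WDR77, the obligate partner of PRMT5, fell to 10.63 ± 0.07 in C-Myc-sh, against 11.70 ± 0.04 in Ctrl-sh (SD, n = 3; change of -1.07 on the log2 scale, SE 0.07, limma adjusted p = 1.21e-08). The proteins that direct the PRMT5 complex to substrates changed in the same direction on their main probe sets, COPRS by -0.70, CLNS1A by -0.45 and RIOK1 by -0.45. CLNS1A had a change of 0.31 in both knockdowns without the _s_at and _x_at probe sets, where it was not called. BTG1, an antiproliferative protein that binds PRMT1, rose to 13.17 ± 0.05 in C-Myc-sh and 12.48 ± 0.02 in Slc7a5-sh, against 12.07 ± 0.03 in Ctrl-sh (SD, n = 3; log2 changes 1.10 and 0.41, SE 0.05 each, limma adjusted p = 2.67e-10 and 6.66e-05). With the mean of its probe sets BTG1 was at 0.67 and -0.18 and not called in either knockdown.

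Of the remaining arginine methyltransferases above the filter level, PRMT7 (-1.11), CARM1 (-0.55) and PRMT6 (-0.47) fell in C-Myc-sh. PRMT9 had a change of 0.07 that did not pass and was below 0 with quantile normalization or median centring. PRMT2 rose by 0.31 (limma adjusted p = 0.0272), a call lost in 8 of 19 alternatives, among them without Ctrl-sh replicate 2 (0.30), Ctrl-sh replicate 3 (0.30), C-Myc-sh replicate 1 (0.31) or C-Myc-sh replicate 2 (0.20). PRMT2, PRMT7, PRMT9, RIOK1 and ADI1 in C-Myc-sh, and CARM1 and PRMT6 there, were picked with their values known. The same list had 3 genes lower and 1 higher in Slc7a5-sh (median 0.03), beside 11.0% lower and 14.3% higher of all tested genes. The 3 lower genes were 1 without Ctrl-sh replicate 1 or Slc7a5-sh replicate 1. CARM1, which makes asymmetric dimethylarginine on histones, changed by -0.50 (SE 0.11, limma adjusted p = 0.00376) and CLNS1A by -0.25. CLNS1A lost that call without Ctrl-sh replicate 1 (-0.21) or Slc7a5-sh replicate 1 (-0.24). PRMT6 was at -0.23 (limma adjusted p = 0.0496), a call lost in 15 of 19 alternatives, among them without any of Ctrl-sh replicates 1 (-0.22), 2 (-0.26) and 3 (-0.21), Slc7a5-sh replicates 1 (-0.25) and 3 (-0.18), or C-Myc-sh replicates 1 and 2.

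Genes of methionine salvage and of its polyamine source had 5 of 8 members lower and 2 higher in C-Myc-sh (median -0.81), beside 26.2% lower and 28.7% higher of all tested genes. In Slc7a5-sh 3 were lower and 1 was higher (median -0.10), beside 11.0% and 14.3% of all. The enzymes that turn decarboxylated SAM into polyamines and release methylthioadenosine were among those that fell in C-Myc-sh. Spermidine synthase SRM was at 24.7% of the Ctrl-sh level in C-Myc-sh (log2 change -2.02), spermine synthase SMS changed by -1.19 and AMD1, which decarboxylates SAM, by -1.01. In Slc7a5-sh AMD1 changed by -0.57 (SE 0.08, limma adjusted p = 0.000118) and SMS by -0.30. SRM was not called there (-0.16, limma adjusted p = 0.0777). The salvage genes themselves changed in both directions in C-Myc-sh. APIP fell there (-0.63), GOT1 rose (0.66) and MRI1 was not called (0.001). In Slc7a5-sh none of APIP, GOT1 and MRI1 was called, and they were picked with their values known. ENOPH1, a middle step of salvage, fell in both knockdowns, by -0.98 in C-Myc-sh and -0.44 in Slc7a5-sh. ADI1, the dioxygenase of a later salvage step, rose in both, with means of 12.68 ± 0.36 in C-Myc-sh and 12.58 ± 0.17 in Slc7a5-sh, against 11.41 ± 0.33 in Ctrl-sh (SD, n = 3; log2 changes 1.27 and 1.17, SE 0.17 each).

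**Figure D4:**
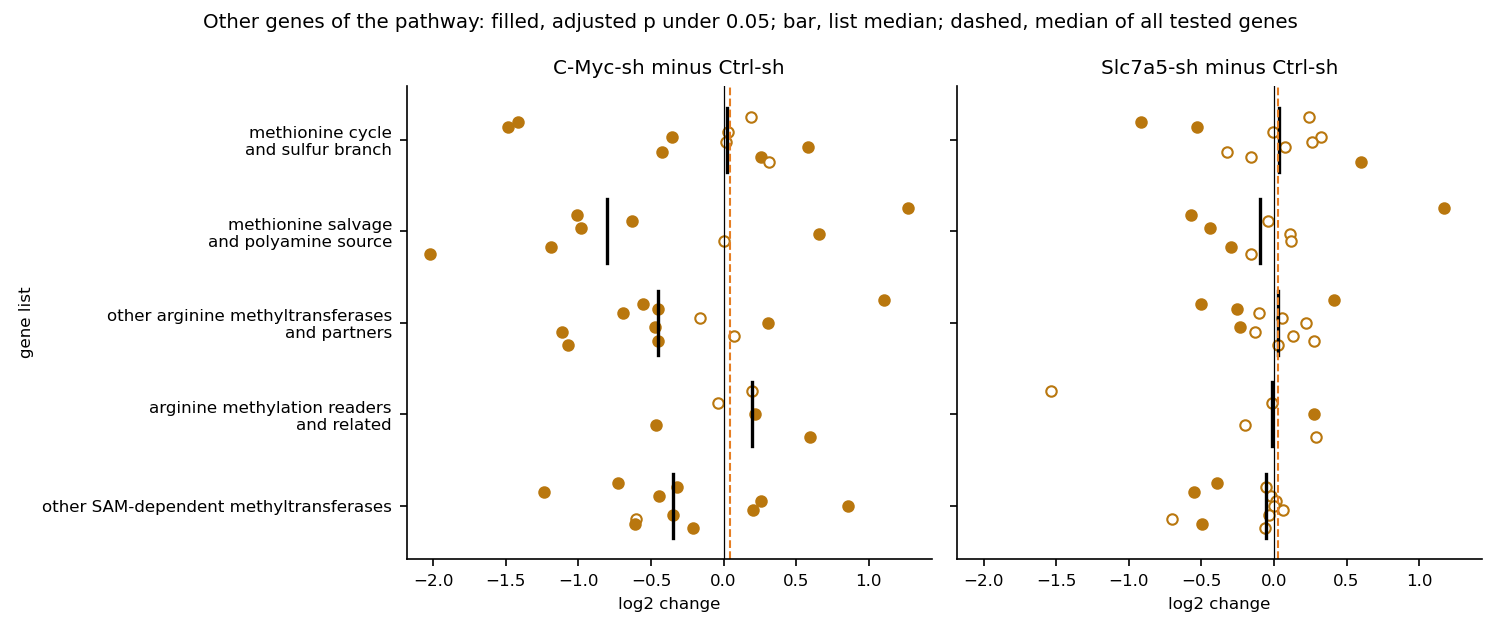
Log2 change (horizontal axis) of the tested genes of 5 lists around the methionine cycle in C-Myc-sh and Slc7a5-sh against Ctrl-sh; filled points passed limma's adjusted p under 0.05, bars are list medians and the dashed line is the median of all tested genes. Salvage and polyamine genes have the lowest median in C-Myc-sh (-0.81), and ADI1 is the highest point of that list in both panels.

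The remaining genes of the cycle and its sulfur branch had 4 of 10 tested members lower and 2 higher in C-Myc-sh (median 0.02), 6 of 10 called beside 54.9% of all tested genes. The 4 lower genes were ADK, ADA, CBS and MMACHC, and the last 2 lost their call without Ctrl-sh replicate 2. In Slc7a5-sh 2 were lower and 1 was higher (median 0.04), 3 of 10 called beside 25.3% of all, so in both comparisons the count was near the share over all genes. The enzymes that clear the adenosine released by AHCY fell in both knockdowns. Adenosine kinase ADK changed by -1.48 in C-Myc-sh and -0.53 in Slc7a5-sh, and adenosine deaminase ADA by -1.41 and -0.92. Of the cobalamin handling genes, which supply the cofactor of MTR, LMBRD1 (0.58) and MMADHC (0.25) rose in C-Myc-sh. MMACHC fell there (-0.42, limma adjusted p = 0.0341) and ABCD4 was not called (0.19). In the sulfur branch CBS fell in C-Myc-sh (-0.36, limma adjusted p = 0.0164) and CTH was not called (0.02). In Slc7a5-sh neither CBS (0.32, limma adjusted p = 0.0556) nor CTH (0.26) was called. CBS was lower in C-Myc-sh than in Slc7a5-sh (-0.68, limma adjusted p = 0.000179), and CTH was not called there (-0.24). MMACHC, ABCD4, CBS and CTH were picked with their values known. MMADHC was not called with median centring (0.13), and LMBRD1 was not called with the mean of its probe sets (0.56). SLC25A26, the carrier that brings SAM into mitochondria, rose by 0.60 in Slc7a5-sh (SE 0.15, limma adjusted p = 0.00869). MAT1A, BHMT, BHMT2 and GNMT, known mainly from liver, lay below the filter level.

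Other SAM-dependent methyltransferases had 7 of 11 tested genes lower and 3 higher in C-Myc-sh (median -0.35), beside 26.2% lower and 28.7% higher of all tested genes. The 3 higher genes were METTL14 (0.86), LCMT1 (0.26) and METTL3 (0.20), picked with their values known. Their count was near the share over all genes and was 1 without C-Myc-sh replicate 3. In Slc7a5-sh 3 were lower and 0 higher (median -0.05), beside 11.0% and 14.3% of all. At an unadjusted limma p under 0.05 the higher count was also 0. DNMT1, the maintenance DNA methyltransferase, changed by -0.73 in C-Myc-sh and -0.39 in Slc7a5-sh. GAMT of creatine synthesis changed by -1.24 and -0.55, and lost the second call without Ctrl-sh replicate 2 (-0.52), Slc7a5-sh replicate 1 (-0.51) or Slc7a5-sh replicate 2 (-0.45). TPMT changed by -0.61 and -0.50, calls that were lost with the mean of its probe sets (-0.50 and -0.12). ICMT changed by -0.44 in C-Myc-sh, a call lost in 1 of 18 alternatives (limma adjusted p = 0.0891). The list of readers of methylated arginine and related enzymes had 5 tested genes, 3 of them called in C-Myc-sh and 1 in Slc7a5-sh, beside 54.9% and 25.3% of all tested genes. Among the readers, proteins with a Tudor domain, SND1 (-0.47) fell and TDRD3 (0.59) and SMNDC1 (0.22) rose in C-Myc-sh, and SMNDC1 (0.27) rose in Slc7a5-sh. The related enzymes JMJD6, a hydroxylase, and DDAH2, of the dimethylarginine hydrolase family, were not called in either comparison. The rise of SMNDC1 in C-Myc-sh was lost with median centring (0.09).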

How the data were processed

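RNA of 9 samples was labelled from the 3′ end and hybridised to short-oligonucleotide arrays, per the labels' protocols. The authors deposited a log2 signal for every probe set on every array, computed with MAS5, per the submitters' processing notes. The version and scaling target are not given in the sources used here. The base of the log was read from the values: on linear scale the mean without the top and bottom 2% was 497 on every array. The table held 54613 probe sets, no missing value, and array medians of 6.05 to 6.26. Arrays of a group correlated at 0.972 to 0.977 over the tested genes, and no arrays were identical. Depth has no meaning for arrays; their number limits the precision.

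GEO's platform annotation named 41091 probe sets with exactly 1 symbol, 1801 with several and 11721 with none; 41037 matched a RefSeq table (GRCh38.p14) by Entrez ID. Per gene, the probe set with the highest mean was used. Genes whose mean reached the median of all probe-set means (5.77) were tested. Suffixes _s_at and _x_at mark probe sets that can bind related transcripts. The fit used limma 3.58.1 in R 4.3.3: 3 group means, eBayes with trend, two-sided, Benjamini-Hochberg adjustment over all tested genes of a comparison. The procedure was tested on simulated data.

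The 10 genes and the lists were chosen with earlier results of these data known. Named beside them are SLC7A5 and MYC, the called genes among the 4 smallest p of each list and knockdown, the 3 genes nearest to a member, and genes said to be picked with their values known. Alternatives changed the scaling, eBayes, filter, probe sets, arrays or pairing. Replicate numbers are shared by the groups, but deviations of same-numbered arrays correlated at only -0.02 to 0.02. No shift shared by same-numbered arrays was seen, which cannot tell whether they were handled together. The main fit did not pair the arrays.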

Additional observations from a re-analysis of the deposited data

How the results depend on the processing

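The falls of MAT2A, AHCY, MTAP, PRMT3 and PRMT5 and the rise of MAT2B in C-Myc-sh against Ctrl-sh kept their direction and call in all 18 or 19 alternatives run. PRMT1 did so in 17 of 18. Without the _s_at and _x_at probe sets only 6 of the 10 genes could be tested. Of these, 3 were lower in C-Myc-sh than in Ctrl-sh and 3 lower than in Slc7a5-sh. Of all 8817 genes tested in that setting, 4568 and 4020 were called in these comparisons, 54.8% and 52.6% of them higher. Median centring left 1 gene higher in each of the 3 comparisons and 1 lower in Slc7a5-sh against Ctrl-sh. The mean of all probe sets left 1 higher in C-Myc-sh against Ctrl-sh, where 4664 of all 10176 genes were called, 51.7% of them higher. In Slc7a5-sh against Ctrl-sh it left 1 higher and 1 lower, and 795 and 786 of all genes were called higher and lower there. In Slc7a5-sh against Ctrl-sh, eBayes without trend and the removal of _s_at and _x_at probe sets also left 1 higher and 1 lower, and leaving out single arrays gave 1 to 2 higher and 1 to 2 lower.

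Signs turned for AHCY in Slc7a5-sh with median centring (-0.0110) and on leaving out single arrays (-0.0269 to 0.0337), for MAT2B without _s_at and _x_at probe sets (-0.0401), and for MTAP with the mean of all probe sets (-0.30). CLNS1A turned in Slc7a5-sh with that mean (0.0313) and without _s_at and _x_at probe sets (0.31), and in C-Myc-sh without those probe sets (0.31); BTG1 turned in Slc7a5-sh with the mean (-0.18). In C-Myc-sh against Ctrl-sh, MTR turned with the mean (-0.0033), MTRR with median centring (-0.0540), and PRMT9 with quantile normalization (-0.0510) and median centring (-0.0561). AHCYL1 turned in C-Myc-sh against Slc7a5-sh with median centring (-0.0609), the mean of probe sets (-0.00104) and on leaving out single arrays (-0.0027 to 0.0887). The causes were not tested. With the replicate block the counts of the 10 genes called were 2 higher and 2 lower in Slc7a5-sh and 2 higher and 7 lower in C-Myc-sh against Ctrl-sh, and 2775 and 6147 of all genes were called; of the named genes, PRMT6 in Slc7a5-sh lost its call (limma adjusted p = 0.0715). Probe sets of a gene can read different transcripts, and signal near background limits the weaker ones.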
